A study of Mus musculus with 8 samples.

Results

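The intercalated disc is the junction that joins heart muscle cells end to end. It holds 3 kinds of contact. Gap junctions are channels built of connexins, through which ions pass from cell to cell. Adherens junctions tie the actin filaments of neighbouring cells together through cadherins and catenins. Desmosomes tie the intermediate filaments together through desmosomal cadherins, plakoglobin, plakophilins and desmoplakin. In heart the latter 2 meet in a mixed junction, and mutations of several of these genes are known from arrhythmogenic cardiomyopathy.

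The 10 genes described here are the connexins Gja1, Gja5 and Gjc1, the adherens junction genes Cdh2, Ctnna3 and Jup, and the desmosomal genes Pkp2, Dsp, Dsg2 and Dsc2. They were chosen by name, and each was looked up among the 65265 entries of the short-read table as the assembled locus on its strand that shares the largest part, and at least 0.5, of the joint span with the GENCODE gene. By that rule 9 of the 10 genes had an entry. Gja5 had none, because its GENCODE span reaches far upstream and its best locus shared 0.123 of it. Its values come from an assembled locus at chr3:97032402-97053645 that shares 0.999 of the joint span with the RefSeq gene. That match was made after the tables had been seen, so Gja5 is kept apart in the counts.

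All RNA came from HL1, a mouse atrial cardiomyocyte line that was grown without any genotype or drug contrast in Claycomb medium with serum and norepinephrine. Purified nuclei were extracted with urea and detergent and spun, the supernatant being the nucleoplasm fraction and the pellet the chromatin fraction. There were 3 stranded short-read libraries of each fraction, both fractions coming from 3 independent cultures, and 2 nanopore long-read libraries of the chromatin fraction alone. The sources do not say which short-read libraries share a culture, so the main test took them as unpaired. Calls with the replicate number as a block are given at the end. The study compared the fractions to find RNA that stays with chromatin. The RNA fraction field of the 3 nucleoplasm samples reads chromatin, and they were taken as nucleoplasm from their titles.

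Recovered reads came to between 91657034 and 121773350 a library. The fractionation controls Malat1 and Pvt1, noncoding RNAs known to stay in the nucleus, were higher in chromatin by 3.82 and 3.93 on the log2 scale. Of the mRNAs known to leave the nucleus, Gapdh fell by 2.07 and B2m fell by 2.67 on the same scale (limma, adjusted p at most 8.91e-04 for the 4 genes). Of 13 cardiomyocyte markers 11 had an entry, all above 0, and their summed normalized counts ranged from 1344600 to 2733728 in chromatin and from 328110 to 515833 in nucleoplasm. Ttn made up most of these sums, with 1094136 to 2359206 in chromatin and 199751 to 318157 in nucleoplasm. Nppa and Sln were low, at means of 20.7 and 57.9 in chromatin. Of the 11 markers 4 were called higher in chromatin and 4 lower, against 26.9% and 20.9% of all entries. Myh6 and Tnnt2 had no entry by the matching rule. Fibroblast markers (7 of 7 above 0) summed to 120670 to 174007 and 253853 to 461194, and smooth muscle markers (3 of 4) to 50479 to 79372 and 146734 to 202666. Col1a1 and Col3a1 made up most of the fibroblast sums, with means of 109925 and 32522 in chromatin, while Lum and Postn were at 0 there. Acta2 made up most of the smooth muscle sums, with a chromatin mean of 68142. Endothelial markers (4 of 5, Cdh5 listed at 0) reached at most 1828 in chromatin and 2934 in nucleoplasm. Macrophage (3 of 4) and epithelial (2 of 4) markers stayed at or below 180 in every library, with Adgre1, Krt5 and Krt14 listed at 0.

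Replicate 3 stood apart for most of the members, most of all in chromatin. As a share of the mean of chromatin replicates 1 and 2, its value was 24.0% for Gja5, 44.7% for Gja1, 45.7% for Ctnna3, 46.8% for Dsp and 53.8% for Jup. The shares of Gjc1, Dsg2, Pkp2 and Cdh2 lay between 64.6% and 88.5%, and Dsc2 stood at 137%. Among the 15740 entries that averaged 100 or more the median share was 93.7% with quartiles of 76.7% and 115%, and 17.2% of those entries lay below 70%. In nucleoplasm the value of replicate 3 was 22.2% of the mean of replicates 1 and 2 for Gja5, 55.0% for Ctnna3, 65.1% for Jup, 71.6% for Gjc1, 73.6% for Dsg2 and 156% for Dsc2, and it lay between 87.0% and 96.5% for the other 4, against a median of 101% over the same entries. The marker sums moved with replicate 3 as well. In chromatin replicates 1 to 3 the cardiomyocyte markers summed to 2733728, 2585899 and 1344600 and the fibroblast markers to 120670, 135634 and 174007. In nucleoplasm the sums were 515833, 494639 and 328110 for cardiomyocyte markers and 259211, 253853 and 461194 for fibroblast markers. Single genes weighed heavily in these sums. Ttn had 2359206, 2218583 and 1094136 in chromatin. Gata4 alone of the cardiomyocyte markers was not lowest in replicate 3, with 80244, 77622 and 82875 in chromatin. Col3a1 had 18906, 21910 and 56749 in chromatin, and Col1a1 had 101002, 112855 and 115918. The part of these marker shifts in the member differences was not tested.

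For 5 of the 10 members the RefSeq promoter table used here holds the sequence around the annotated start, and the 100 bases before the start are shown for them to place the entries whose levels are compared below. They lie in GRCm38.p6, written 5′ to 3′ on the strand of the gene, at chr10:56377200-56377299 (+) for Gja1, chr3:97032302-97032401 (+) for Gja5, chr10:63429998-63430097 (+) for the first start of Ctnna3, chr11:100397791-100397890 (-) for Jup and chr13:38151194-38151293 (+) for Dsp. Capitals mark letters of 5 motifs that were searched on both strands. The GC box was searched for as GGGCGG. The TATA box was searched for as TATAAA. The letters of the GATA factor motif were AGATAA. For the AP-1 motif they were TGANTCA, with any base at N. For the T-box factor motif they were AGGTGTG. No matches to different motifs overlapped in these windows.
Gja1: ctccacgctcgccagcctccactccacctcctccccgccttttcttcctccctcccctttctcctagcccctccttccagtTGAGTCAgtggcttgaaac
Gja5: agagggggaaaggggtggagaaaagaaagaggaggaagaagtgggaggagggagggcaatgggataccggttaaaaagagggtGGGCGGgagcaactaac
Ctnna3: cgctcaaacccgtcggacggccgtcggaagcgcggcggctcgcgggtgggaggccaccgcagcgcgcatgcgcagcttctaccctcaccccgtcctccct
Jup: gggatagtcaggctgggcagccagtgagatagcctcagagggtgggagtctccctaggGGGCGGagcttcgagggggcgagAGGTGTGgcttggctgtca
Dsp: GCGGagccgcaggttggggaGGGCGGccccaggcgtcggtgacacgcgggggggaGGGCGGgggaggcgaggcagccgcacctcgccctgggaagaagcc

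The capitals at the left end of the Dsp stretch are the last 4 letters of a GC box that begins before it. The G and C share of the 100 bases was 61% for Gja1, 55% for Gja5, 74% for Ctnna3, 65% for Jup and 79% for Dsp, against a median of 55% with quartiles of 46% and 65% over all 32851 windows in the table. In the full windows of 300 bases a GC box was found for Gja5, Ctnna3, Jup and Dsp, and 35.7% of all windows hold it. The Gja1 window held an AP-1 match at position -19 and a GATA match at position -135, motifs held by 7.81% and 11.2% of all windows. T-box matches were found for Jup, at position -19, and for Dsp, and 5.84% of all windows hold that motif. No TATA match was found in these 5 windows, against 13.6% of all windows. The matches describe letters and not binding. The short-read entries of Gja1, Gja5 and Ctnna3 began at the annotated start, that of Jup 15 bases before it and that of Dsp 1823 bases before it, so that the whole Dsp stretch lies inside the entry.

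Connexins differed in direction between the fractions. Gja1 (ENSMUSG00000050953.10, connexin 43, the main ventricular gap junction channel) spans chr10:56377330-56402513 (mm10, + strand) with 5 exon blocks. It had normalized counts of 1115, 1351 and 552 in chromatin replicates 1 to 3 and of 4660, 3950 and 4153 in nucleoplasm replicates 1 to 3. The fractions did not overlap, and every nucleoplasm library lay above 3 times the mean of chromatin. The mean was 1006 ± 411 in chromatin against 4254 ± 365 in the other fraction (SD, n = 3 each), and the level fell by 2.17 ± 0.33 (SE) on the log2 scale in chromatin (limma, adjusted p = 0.00235). These values are relative to the other RNA of a library, so that more of one RNA and less of the others cannot be told apart, nor can more RNA per cell and more cells that hold it. Without chromatin replicate 3 the log2 difference was -1.79, below 4 fold, and it was still called (limma, adjusted p = 5.24e-04).

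Gjc1 (ENSMUSG00000034520.14, connexin 45, the connexin of the conduction system and the early heart) lies at chr11:102799579-102819700 on the - strand. Its normalized counts were 18751, 17913 and 11846 in chromatin and 5666, 5434 and 3975 in nucleoplasm. Every chromatin library was above every nucleoplasm library. The log2 difference was 1.67 ± 0.23 (SE; limma, adjusted p = 0.00141), a fold of 3.19 with a 95% interval of 2.17 to 4.69.

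Gja5 (ENSMUSG00000057123.14, connexin 40 of atrial muscle and conduction fibres) had the lowest levels of the 10 genes, with 187, 247 and 52.0 in chromatin and 584, 615 and 133 in nucleoplasm. Replicate 3 was low in both fractions, and the fractions overlapped, since nucleoplasm replicate 3 lay below chromatin replicates 1 and 2. The log2 difference of -1.43 had a 95% interval of -3.44 to 0.58 and was not called (limma, adjusted p = 0.211). Without chromatin replicate 3 it was -0.75 and was not called either (limma, adjusted p = 0.469). Between libraries of the same replicate number the log2 difference was -1.64, -1.31 and -1.34 for numbers 1 to 3. With the number as a block it was called (limma, adjusted p = 0.00106), but the sources do not say that a number marks a culture. A second same-strand locus inside the GENCODE span (chr3:97074153-97076020) had a log2 difference of 1.21 (limma, adjusted p = 0.00816). Its means were 73.8 ± 14.5 in chromatin and 30.8 ± 1.70 in nucleoplasm (SD, n = 3). With both loci summed, Gja5 stood at -0.91 and was not called (limma, adjusted p = 0.334).

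**Figure D1:**
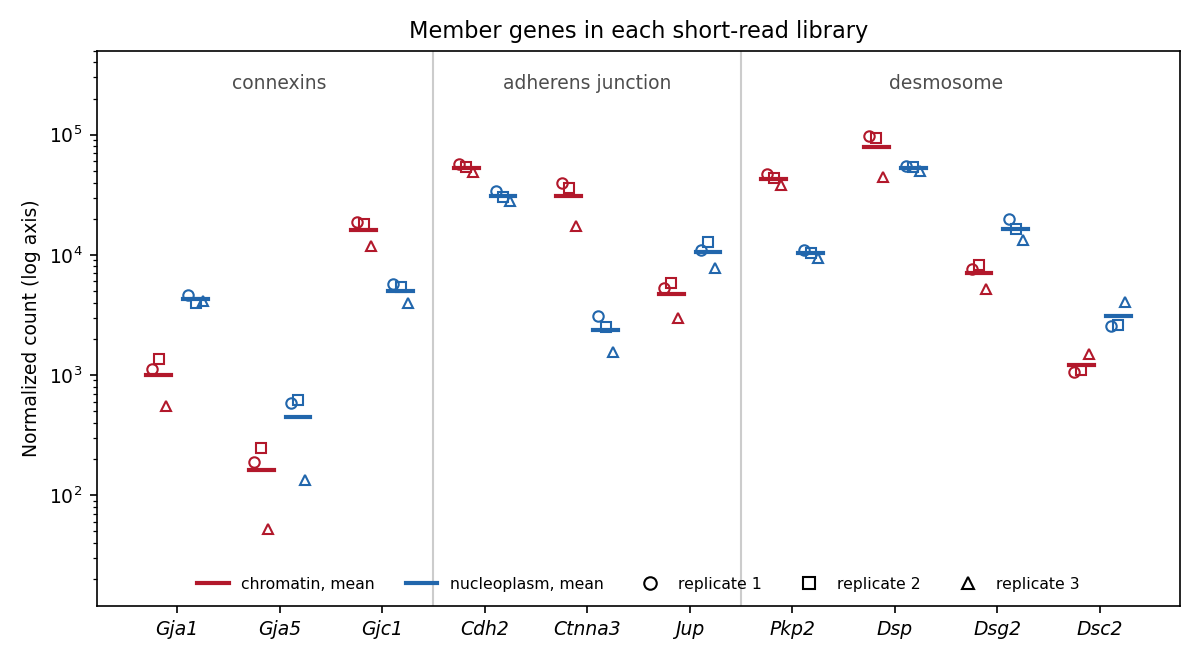
Normalized counts (log axis) of the 10 genes in the 3 chromatin (red) and 3 nucleoplasm (blue) short-read libraries. Symbols are replicates and bars are group means. The fractions overlap for Gja5 and Dsp, and chromatin replicate 3 (triangle) is the lowest chromatin library for every gene except Dsc2.

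The adherens junction genes held the largest rise among the members. Ctnna3 (ENSMUSG00000060843.11, alpha-T-catenin, which links cadherin complexes to actin and binds plakophilin 2) had 39526, 35825 and 17215 normalized counts in chromatin and 3086, 2522 and 1543 in nucleoplasm. The lowest chromatin library was over 5 times the highest nucleoplasm library. The log2 difference was 3.66 ± 0.40 (SE; limma, adjusted p = 5.55e-04), and it was 4.04 without chromatin replicate 3.

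Cdh2 (ENSMUSG00000024304.14, N-cadherin, the adhesion receptor of the junction) lies at chr18:16588877-16809246 on the - strand. It had 56892, 53941 and 49019 normalized counts in chromatin and 33866, 30481 and 27997 in nucleoplasm. The libraries of a fraction lay close together, with a coefficient of variation of 7.47% in chromatin and 9.57% in nucleoplasm, and the fractions did not overlap. The log2 difference was 0.79 ± 0.12 (SE; limma, adjusted p = 0.00218). Under quantile normalization it was 0.33 and was not called (limma, adjusted p = 0.0791).

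Jup (ENSMUSG00000001552.14, plakoglobin, which binds cadherins in adherens junctions and in desmosomes) spans chr11:100368958-100397763 on the - strand. Its normalized counts were 5273, 5848 and 2994 in chromatin and 11035, 12676 and 7720 in nucleoplasm, without overlap. The level fell by 1.18 ± 0.31 (SE) on the log2 scale in chromatin (limma, adjusted p = 0.0207). The call was lost when nucleoplasm replicate 1 or nucleoplasm replicate 2 was left out (limma, adjusted p = 0.0663 and 0.0700).

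Among the desmosomal genes 1 rose, 2 fell and 1 was not called. Pkp2 (ENSMUSG00000041957.15, plakophilin 2, the plaque protein that ties desmoplakin to the desmosomal cadherins) lies at chr16:16213318-16272712 on the + strand. It had 46911, 43919 and 38141 normalized counts in chromatin against 10963, 10418 and 9449 in nucleoplasm, again without overlap. The log2 difference was 2.06 ± 0.12 (SE; limma, adjusted p = 4.92e-05). It lay just above 4 fold, and without chromatin replicate 1 it was 1.996 and just below it.

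The desmosomal cadherins, which reach across the gap between the cells, were both lower in chromatin. Dsg2 (ENSMUSG00000044393.15, desmoglein 2; chr18:20558074-20604521, + strand) had 7637, 8298 and 5196 normalized counts in chromatin and 19913, 16409 and 13368 in nucleoplasm. Dsc2 (ENSMUSG00000024331.11, desmocollin 2; chr18:20030633-20059554, - strand) had 1051, 1110 and 1485 in chromatin and 2570, 2625 and 4053 in nucleoplasm. Neither gene overlapped between the fractions, and Dsc2 was the only member whose replicate 3 was the highest library of both fractions. On the log2 scale the level fell by 1.24 ± 0.23 (SE) for Dsg2 (limma, adjusted p = 0.00505) and by 1.33 ± 0.23 (SE) for Dsc2 (limma, adjusted p = 0.00368).

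Dsp (ENSMUSG00000054889.10, desmoplakin, the link from the plaque to intermediate filaments; chr13:38151294-38198577, + strand) had 98248, 93361 and 44808 normalized counts in chromatin and 54744, 53762 and 49673 in nucleoplasm. Chromatin replicates 1 and 2 lay above all nucleoplasm libraries and chromatin replicate 3 lay below them. The log2 difference was 0.50 with a 95% interval of -0.28 to 1.27 and was not called (limma, adjusted p = 0.258). Without chromatin replicate 3 it was 0.86 and was called (limma, adjusted p = 0.00217).

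By the rule, then, 4 of 9 members were higher in chromatin, 4 were lower and 1 was not called at an adjusted p under 0.05. Over all 35804 entries tested 26.9% were called higher and 20.9% lower, and over 10957 assembled loci of protein-coding genes 25.5% and 43.4%. More than 4 fold, 2 members were higher (Ctnna3 and Pkp2) and 1 lower (Gja1), against 15.7% and 4.9% of all entries. Of the coding loci 5.3% were higher and 6.06% lower by more than 4 fold. The median log2 difference of the 9 members was 0.50, against 0.38 for all entries and -0.32 for the coding loci. That median moved with single libraries, to 0.85 without chromatin replicate 3, 0.30 without chromatin replicate 1 and 0.33 without chromatin replicate 2, and under quantile normalization it was 0.07. Without chromatin replicate 3, 5 members were called higher and 4 lower. With only 9 genes these counts were read as a description of the members.

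Scaling the libraries to equal totals of the ERCC standards, RNAs of known sequence that had been added to each fraction, moved the median of all entries from 0.38 to 0.84. All 10 members kept their sign. Gja1 was the only member still called lower, at -1.44 (limma, adjusted p = 0.0133), while Jup (-0.45), Dsg2 (-0.51) and Dsc2 (-0.59) were no longer called and Dsp became called at 1.23 (limma, adjusted p = 0.0206). By the rule 5 of 9 members were then higher and 1 lower, against 34.8% and 8.68% of all entries. The counts over all entries were 12457 higher and 3108 lower under this scaling, against 9632 and 7480 with the deposited scaling.

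**Figure D2:**
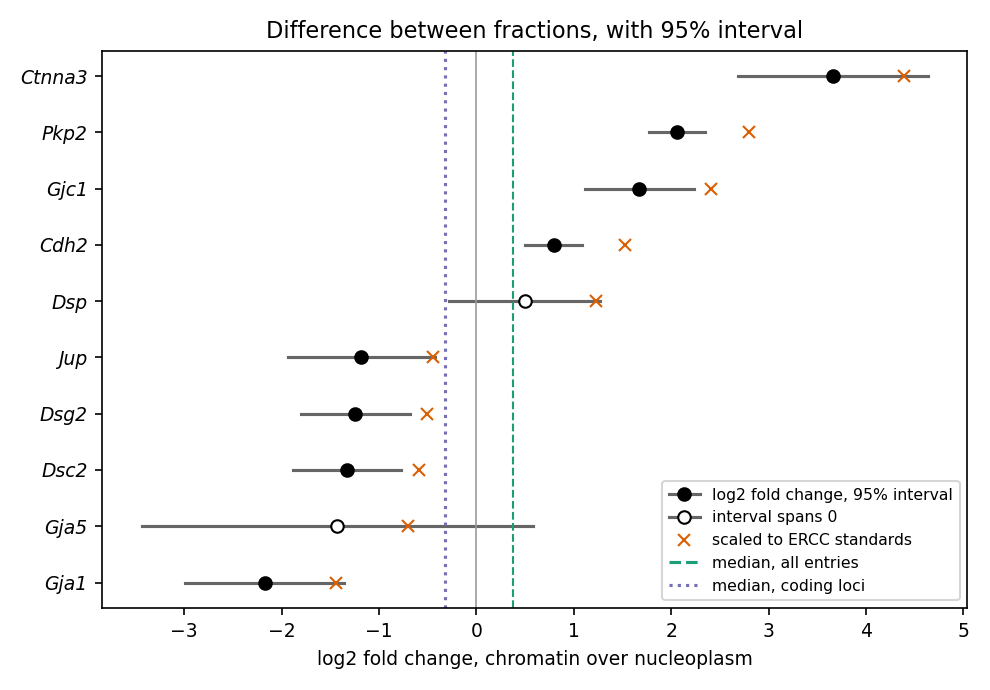
Log2 fold change of chromatin over nucleoplasm for each gene with its 95% interval from limma (3 libraries a fraction). Crosses give the value after ERCC scaling, and the vertical lines give the medians of all entries (0.38) and of coding loci (-0.32). Open circles mark Dsp and Gja5, whose intervals span 0.

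The order of the members by level changed between the fractions. Per kb of exon, where an entry's normalized count is divided by the joined exon length of the gene, the chromatin order ran from Dsp (8159 ± 3059) and Pkp2 (8021 ± 832) over Cdh2 (6606 ± 493), Ctnna3 (4269 ± 1655) and Gjc1 (3232 ± 753) to Dsg2 (852 ± 198), Jup (731 ± 235), Dsc2 (230 ± 44.6), Gja1 (98.1 ± 40.0) and Gja5 (28.2 ± 17.4; SD, n = 3 for each). The library ranges of Dsp and Pkp2, of Ctnna3 and Gjc1 and of Dsg2 and Jup overlapped, while the other neighbours were apart. In nucleoplasm Dsp (5459 ± 278) and Cdh2 (3816 ± 365) led. They were followed by Dsg2 (2003 ± 396), Pkp2 (1917 ± 143), Jup (1628 ± 392), Gjc1 (1004 ± 183), Dsc2 (584 ± 159), Gja1 (415 ± 35.6), Ctnna3 (330 ± 108) and Gja5 (77.3 ± 46.9). There the ranges of Dsg2 and Pkp2, of Pkp2 and Jup and of Gja1 and Ctnna3 overlapped. Ctnna3 thus stood at rank 4 in chromatin and at rank 9 in nucleoplasm, and Dsg2 at ranks 6 and 3. The exon length is that of the whole GENCODE gene, also where the locus has other ends. The loci of Gja5 and Gja1 are shorter than the gene, and those of Cdh2, Pkp2 and Gjc1 reach past it, so these levels are approximate.

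The members also differ in how much of the gene is exon. Exons make up 0.459% of the Ctnna3 span of 1574 kb, 3.66% of the Cdh2 span of 220 kb and 9.02% of the Pkp2 span of 59.4 kb, and these genes were higher in chromatin. Of the genes that were lower in chromatin, exons make up 40.7% of Gja1, 22.3% of Jup, 18.2% of Dsc2 and 17.8% of Dsg2. Gjc1 (24.9%) and Dsp (20.4%) did not follow that order. Across the 9 members Spearman's rho of the log2 difference was -0.58 with the exon share and 0.57 with the span, given as a description of 9 genes that share the same 6 libraries. Over the 10957 coding loci rho with the span was 0.44.

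When the coding loci were divided into quintiles by span, the median log2 difference went from -1.20 in the shortest quintile over -0.68, -0.36 and -0.05 to 0.48 in the longest. Gja1, Gjc1, Jup and Dsc2 belong to the middle quintile, whose quartiles were -0.996 and 0.43. Gjc1 lay above these quartiles, and Gja1, Jup and Dsc2 lay below them. In the next quintile, with quartiles of -0.67 and 0.72, Pkp2 lay above, Dsg2 below and Dsp within. Among the longest genes, with quartiles of -0.26 and 1.25, Cdh2 lay within and Ctnna3 above.

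**Figure D3:**
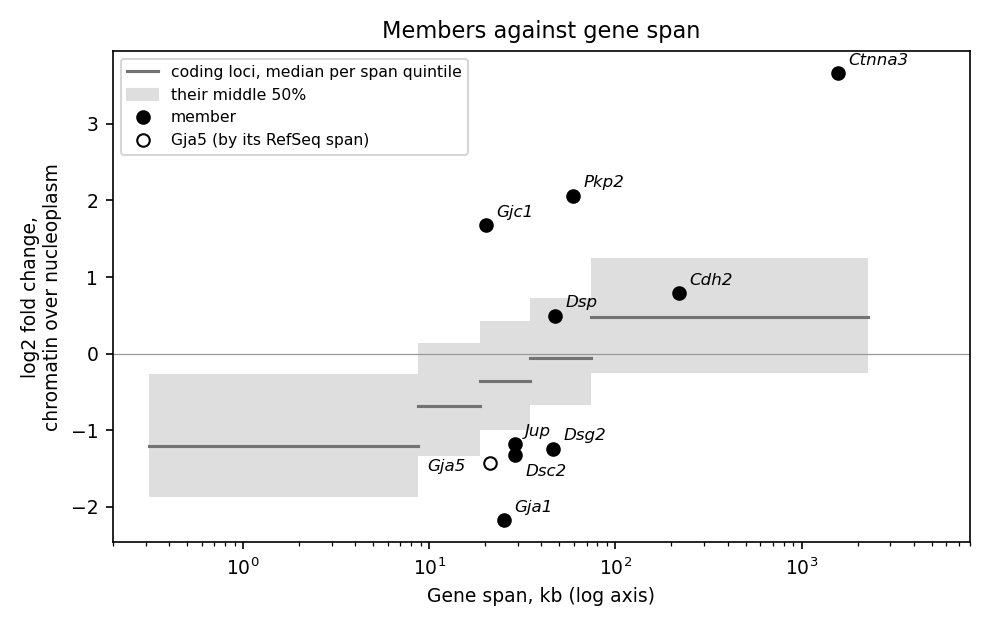
Log2 fold change of chromatin over nucleoplasm against gene span (kb, log axis). Grey lines are the medians of the span quintiles of the coding loci and grey blocks their middle 50%. The medians go from -1.20 to 0.48 from left to right, Ctnna3, Pkp2 and Gjc1 lie above the block of their quintile, and Gja1, Jup, Dsc2 and Dsg2 lie below theirs.

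Several assembled loci did not end where the annotated gene ends. On the - strand the Cdh2 locus reached 21248 bases and the Gjc1 locus 3969 bases past the annotated 3′ end, and on the + strand the Pkp2 locus reached 16370 bases past it. The Dsg2 locus began 4715 bases before the annotated 5′ end. The Gja1 locus stopped 12094 bases short of the GENCODE 3′ end and shared 0.519 of the joint span, close to the minimum of 0.5. The Ctnna3 and Dsc2 loci had the same ends as the annotated genes. RNA beyond an annotated end is counted with the gene in these values.

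Ctnna3 was the member with the most RNA outside its own entry. The gene spans chr10:63430098-65003667 (+ strand) in 23 exon blocks, and 5 further assembled loci of the same strand lie inside it, from 501 to 718 kb after its start (chr10:63931016-64148520). Together they had 38081 to 85666 normalized counts in each chromatin library and 3070 to 4933 in each nucleoplasm library, against 17215 to 39526 and 1543 to 3086 for the gene's own entry. In 4 of the 5 loci the log2 difference lay between 4.06 and 4.13 and was called (limma, adjusted p at most 2.19e-04), beside the 3.66 of the gene entry. The remaining locus shares its end with the first and was above 0 in chromatin replicate 2 (4883) and nucleoplasm replicate 1 (668) alone. StringTie divides the reads of overlapping models, so the split between these 2 loci is uncertain. Of the 5 loci, 4 touch no annotated exon of Ctnna3.

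The antisense gene Lrrtm3 lies within the same stretch on the other strand. Its entry had at most 14.6 normalized counts in any library, so that the strand-specific counts of the stretch lay almost wholly on the Ctnna3 strand.

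Long reads of the chromatin fraction covered the same gene in many short models. In replicates 1 and 2 the models inside Ctnna3 on its strand summed to 526 and 390 TPM, and 155 models were above 0. Of these, 153 were assembled models without a single annotated exon, with a median span of 1229 bases and a longest span of 18272 bases. They summed to 520 and 390 TPM, and 111 of them were above 0 in both libraries. No one of them exceeded 11.3 TPM in a library. The annotated transcripts of the gene summed to 6.01 TPM in replicate 1 and were listed at 0 in replicate 2. Exons make up 0.459% of the Ctnna3 span, and how many exon-free models that share alone would give was not tested. The RNA of these libraries was polyadenylated and primed with oligo-dT. Across its long-read transcripts the study found a large share wholly inside introns of annotated genes.

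Along the gene, the first 393 kb held 29.9% and 33.4% of the TPM of these models in replicates 1 and 2, and the stretch from 393 to 787 kb, where the short-read loci lie, held 44.0% and 36.2%. From 787 to 1180 kb it was 13.8% and 18.9%, and in the remainder 12.2% and 11.5%. Both libraries thus had over 65% of the TPM in the 5′ part up to 787 kb. On the opposite strand 33 models inside the gene summed to 121 and 83.5 TPM. The sources used here do not say whether long reads were assigned a strand before these TPM were made, so the strand of a long-read model is uncertain, whereas the short-read libraries are stranded.

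**Figure D4:**
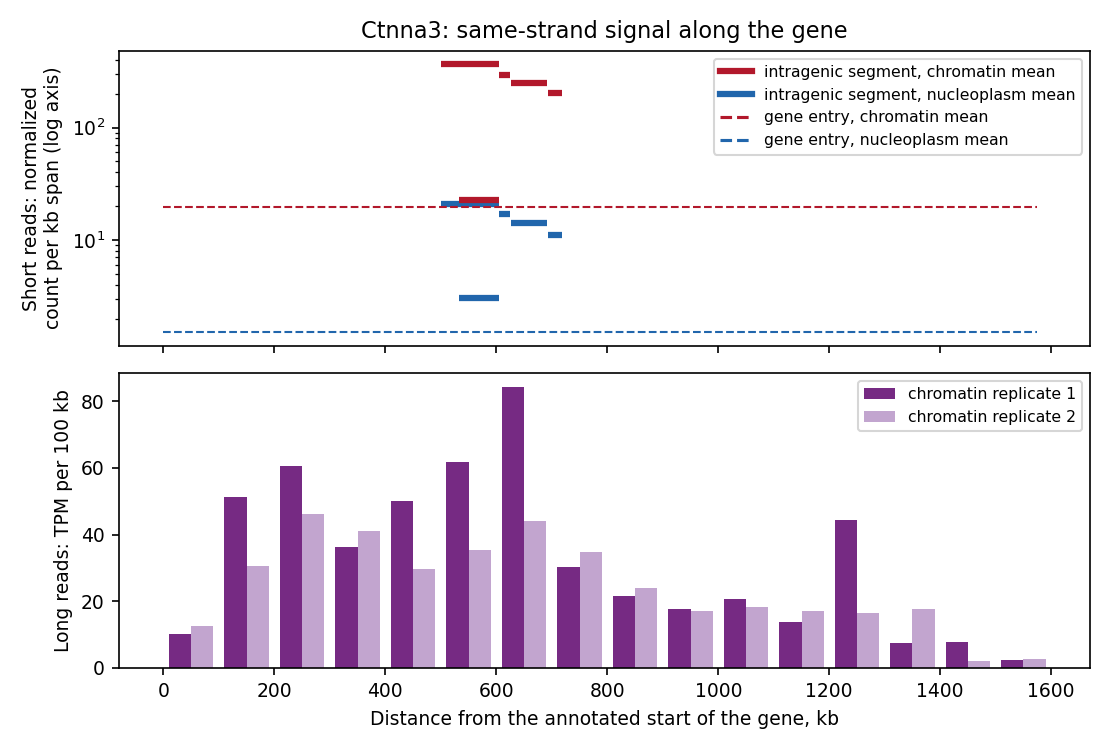
Same-strand signal along Ctnna3 by distance from its annotated start (kb). Above, normalized short-read counts per kb of span (log axis) for the 5 intragenic loci (thick lines) and for the gene's own entry (dashed), as means of 3 chromatin (red) and 3 nucleoplasm (blue) libraries. Below, summed TPM of assembled long-read models by their midpoint in bins of 100 kb for the 2 chromatin libraries. The short-read loci lie between 501 and 718 kb. The lowest bin of each long-read library lies beyond 1400 kb, where the last bin is only partly inside the gene.

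For the other members long reads gave a smaller number of models. Model counts and summed TPM were not divided by span, which is 1574 kb for Ctnna3 and 20.1 to 220 kb for the others. Inside the annotated span and on the same strand, TPM was above 0 in both libraries for 6 of the 10 genes. These were Ctnna3, Cdh2 (58.0 and 66.9 TPM), Pkp2 (37.3 and 55.0), Dsp (26.8 and 18.9), Gja1 (10.7 and 2.28) and Dsc2 (2.94 and 3.18). Gja5 had 0.447 TPM in replicate 1 and was listed at 0 in replicate 2. Gjc1, Jup and Dsg2 had no model inside the span above 0.

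For these 3 genes the annotated transcripts end outside the GENCODE span by a small distance. With the span widened by 500 bases at each end, a margin chosen after the tables were seen, Gjc1 reached 17.8 and 14.5 TPM, Jup 12.9 and 9.80, and Dsg2 23.3 and 13.1. The value of Dsp rose to 105 and 93.5 TPM and that of Gja1 to 17.5 and 6.32, through annotated transcripts of 78.4 and 74.6 TPM for Dsp and of 6.86 and 4.03 TPM for Gja1. With that margin 9 of the 10 genes were above 0 in both libraries and Gja5 was the exception. The share of all genes above 0 was computed neither with nor without the margin, so these counts describe the members alone. Of the 196683 long-read transcripts listed, 109118 were above 0 in at least 1 library.

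The models behind the long-read values differed by gene. Pkp2, Dsg2 and Dsc2 were each covered by a single annotated transcript of about the length of the gene. Cdh2 had an annotated transcript of 74.3 kb (28.2 and 30.5 TPM), an assembled model over the whole 220 kb span (19.5 and 24.0 TPM) and an assembled model of 31.5 kb that touches no annotated exon (10.4 and 12.3 TPM). Inside Dsp the 5 assembled models above 0 touch no annotated exon and gave all of its 26.8 and 18.9 TPM. Opposite-strand TPM inside the span was 47.7 and 49.9 for Dsp, 29.2 and 23.5 for Dsg2, 8.93 and 11.3 for Cdh2, 4.17 and 7.18 for Gja5 and 4.84 and 1.68 for Jup, and there was none inside Gja1, Gjc1, Pkp2 and Dsc2. With the span widened by 500 bases the opposite-strand TPM was 66.3 and 69.8 for Cdh2, 24.6 and 10.3 for Pkp2, 15.3 and 16.2 for Gjc1 and 49.9 and 50.5 for Dsp, and it was the same as inside the span for the other 6 genes. For Cdh2 that was no less than on its own strand, and for Gjc1 the values of the strands were close. With every overlapping model counted, Jup had 142 and 171 TPM on the opposite strand and 87.2 and 98.4 on its own. These sums came mostly from models that reach beyond the gene. The opposite-strand TPM of Pkp2, Gjc1 and Gja5 was also higher by overlap than with the margin. With 2 libraries of 1 fraction these values have no test, and TPM keeps no depth.

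**Figure D5:**
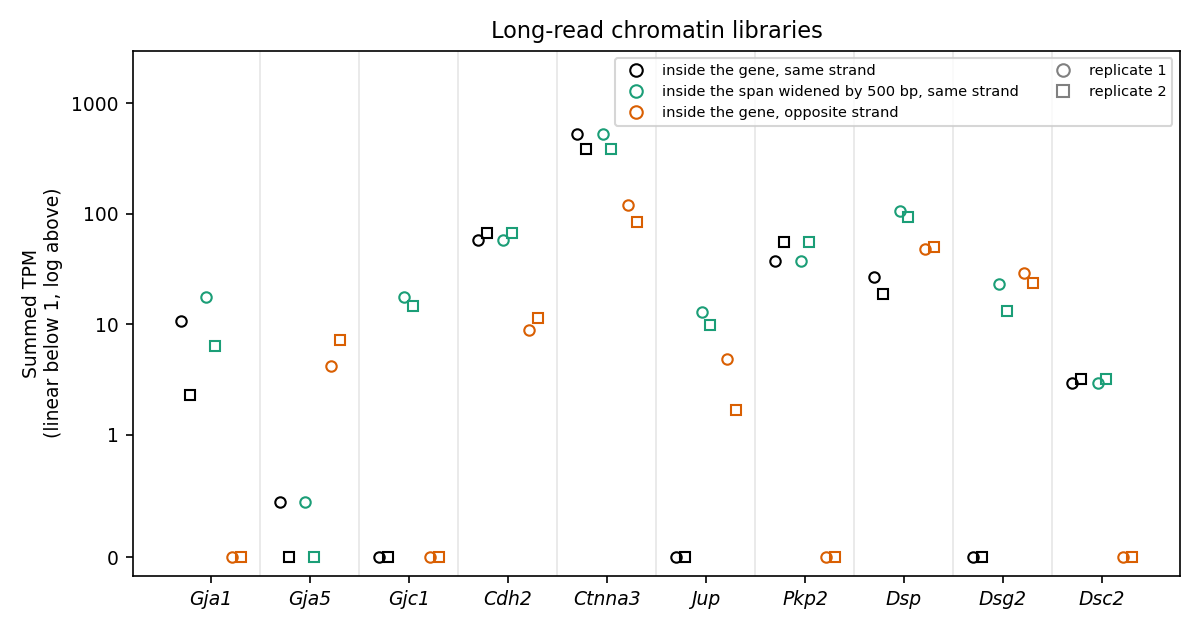
Summed long-read TPM of each gene in chromatin replicates 1 (circle) and 2 (square), on an axis that is linear below 1 and logarithmic above. Black is inside the gene on its strand, green the span widened by 500 bases and orange the opposite strand. Ctnna3 lies at 526 and 390 TPM, and Gjc1, Jup and Dsg2 move from 0 to between 9.80 and 23.3 with the wider span. The sums are not divided by gene span.

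Other genes of the junction, from lists put together by role, were described in the same fit. Of 52 listed genes 48 were tested, and 10 were higher in chromatin, 10 lower and 28 not called, with a median log2 difference of -0.21. The shares were 20.8% higher and 20.8% lower, against the 26.9% and 20.9% of all entries. With ERCC scaling Gja3 (-0.66), Ctnnb1 (-0.44) and Pkp3 (-0.53), described next, were no longer called (limma, adjusted p = 0.223, 0.143 and 0.416).

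Of 7 tested connexins and pannexins 1 was higher and 2 were lower. Gja3, a connexin known best from the lens, fell by 1.38 on the log2 scale in chromatin (limma, adjusted p = 0.00739), from a nucleoplasm mean of 101 ± 16.6 (SD, n = 3) normalized counts. Gjc3 was higher by 1.94 (limma, adjusted p = 0.0168), but at only 3.81 ± 1.63 against 0.242 ± 0.418 normalized counts (SD, n = 3), and the call was lost without nucleoplasm replicate 1 or 2 and with DESeq2. Gjb1 and Gjb2 were listed at 0 in every short-read library.

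Of 11 adherens junction partners 3 were higher and 3 lower. Ctnnb1, beta-catenin, fell by 1.18 on the log2 scale (limma, adjusted p = 3.92e-04), beside the 1.18 by which its relative Jup fell. Nectin2, an adhesion receptor, fell by 1.44 (limma, adjusted p = 1.72e-04).

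Of 11 other desmosomal and plakin genes 1 was higher and 2 were lower. Pkp4, a relative of Pkp2 found at adherens junctions, was higher by 1.77 on the log2 scale (limma, adjusted p = 8.66e-05), with 48649 ± 6208 normalized counts in chromatin and 14199 ± 531 in nucleoplasm (SD, n = 3). Perp, a desmosomal membrane protein, fell by 1.35 (limma, adjusted p = 2.68e-04). Pkp3 fell by 1.22 (limma, adjusted p = 0.0411) at 13.4 ± 2.93 against 33.3 ± 11.4 normalized counts (SD, n = 3), a call that was lost when any library other than nucleoplasm replicate 1 was left out. The desmosomal cadherins of skin, Dsg1a, Dsg3, Dsg4, Dsc1 and Dsc3, were at a mean of at most 4.63 normalized counts in either fraction and were not called.

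Of 19 tested scaffold and linker genes 5 were higher and 3 lower. The large cytolinkers Dst and Plec were higher by 2.26 and 2.18 on the log2 scale (limma, adjusted p = 5.06e-05 and 1.80e-04). The linker Sorbs2 was higher by 1.96 and Ank3, ankyrin-G, which holds sodium channels at the disc, by 1.73 (limma, adjusted p = 7.30e-05 and 2.06e-04). Tmem43, an inner nuclear membrane protein whose gene is also known from arrhythmogenic cardiomyopathy, fell by 1.53 (limma, adjusted p = 1.32e-04).

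For 9 of the members the named locus with the most similar course over the 6 short-read libraries was found by Pearson's r of log2(normalized count + 1), among about 11043 assembled loci with a symbol and a mean of at least 100. It was Ndufab1-ps for Gja1, Lgr6 for Gja5, Nav1 for Gjc1, Add3 for Ctnna3, Snn for Jup, Onecut2 for Pkp2, Kbtbd7 for Dsg2 and Med26 for Dsc2, each with r between 0.998 and 1.000. Dsp had the lowest such value, 0.987 with Arap1. The libraries fall into 2 fractions and are shared by all loci, so these values describe similar courses over 6 points. The size of a difference does not enter r. On the log2 scale it was 3.66 for Ctnna3 and 1.79 for Add3, but 2.06 for Pkp2 and 2.02 for Onecut2.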

How the data were processed

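Per the study's methods the authors aligned short reads to mm10 with HISAT2 2.1.0 using strand, assembled and re-estimated transcripts with StringTie and counted genes with prepDE. They deposited gene counts divided by DESeq2 size factors, a signal that is not scaled for length. For long reads, mapped with minimap2 in its splice mode, the authors deposited StringTie TPM for each transcript, and the sources used here do not say whether the reads were stranded first.

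All values of each short-read library (100%, tolerance 0.01) were whole multiples of its smallest step. In nucleoplasm replicate 1 that step was 1.01, close to 1, but only 1.21% of its values above 0 were whole as deposited. The recovered reads scale with the read length given to prepDE. Size factors lay between 0.834 and 1.38. Precision is limited by the 3 libraries a fraction.

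The main test was limma 3.58.1, run in R 4.3.3 on log2(normalized count + 1) and allowing the variance to follow the mean. It covered the 35804 entries that were above 0 in 1 library or more. P-values were adjusted by Benjamini-Hochberg over all of them, and called means an adjusted p under 0.05. Fold changes on that scale understate changes of low entries. A gene with accession entries alone entered as their sum. On the recovered reads, the quasi-likelihood test of edgeR 4.0.16 with TMM factors and the default test of DESeq2 1.42.0 were alternatives, since the deposited values are normalized. They called 7743 and 8627 entries higher and 7661 and 7686 lower. The main limma fit, limma with the replicate number as a block, edgeR without a block and DESeq2 were tested on simulated data. Annotation was GENCODE M21 (GRCm38, which is mm10), and sequences came from RefSeq (GRCm38.p6). Other alternatives changed the pseudocount, filter, scaling, libraries, entry of the gene and the replicate block.

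The members and lists were chosen with earlier results of these data known. All members are named. The locus most similar in course to Cdh2 is not reported here. Of the other lists, called genes were named by size of change, at most 12. Each column of both tables could be assigned to a sample. Python 3.11.15, numpy 2.4.6, pandas 2.3.3 and matplotlib 3.10.9 were used.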

Additional observations from a re-analysis of the deposited data

How the results depend on the processing

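Over 20 alternatives, 178 of 197 pairs of a member and an alternative kept the sign and the side of the threshold, 15 lost the call, 4 gained it and none changed sign. Testing for a change of more than 4 fold itself (limma treat) called 0 members in either direction, with Ctnna3 nearest (adjusted p = 0.0528). With ERCC scaling 1 member was lower, 0 were more than 4 fold lower, the median of the members was 1.23 and 3 of the other disc genes were lower. More than 4 fold higher, 1 member in place of 2 was called with edgeR, with quantile normalization, with edgeR and the replicate block, and with a minimum shared span of 0.8, where Pkp2 and Gja1 have no entry and 0 were more than 4 fold lower. With any single library left out, there were 1 to 2 members more than 4 fold higher (1 without chromatin replicate 1) and 0 to 1 more than 4 fold lower (0 without chromatin replicate 3). Without a filter on low values Jup was not called (adjusted p = 0.0787). Annotated transcripts alone gave 3 members with long-read TPM above 0 in both libraries; overlap by 1 base, either strand, and the span widened by 500 bases each gave 9. No member has accession entries, so that alternative was not run. The causes of these changes were not tested.

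Deviations of same-numbered libraries from their fraction means correlated at 0.0975, 0.0888 and 0.223 (other pairs -0.138 to 0.0614), each library best with its own number, a hint from the data; the numbers were not taken as pairs. With the replicate block limma called 10312 entries higher and 8457 lower. Of the members the block changed the call of Gja5 alone, at -1.43 with limma (adjusted p = 0.00106) and -1.54 with edgeR (adjusted p = 0.00233), and 4 higher and 4 lower calls were made by either tool. With the limma block 13 of the other disc genes were higher and 12 lower.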
